A study of Homo sapiens with 8 samples.

Results

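hsa-miR-3125, hsa-miR-5194 and hsa-miR-4716-3p are 3 of the 1887 human miRNAs on the array, chosen by their measured signal, which was higher with both drugs together than with either drug alone. Cells were of the established human prostate cancer line PC-3 and received, for 24 h, the solvent DMSO, luteolin, gefitinib, or both drugs at once, with each drug at 60 µM. Luteolin is a flavonoid made by plants, and gefitinib blocks the kinase of the epidermal growth factor receptor. Each treatment was measured on 2 arrays of 1 colour, all on 1 slide and read in 1 scan. The labels call these biological replicates but name no separate cultures, so p-values here measure only the spread between these arrays. As whole cell populations were measured, fewer cells with a given miRNA cannot be told apart from less of it per cell.

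With both drugs, the total signals of the 3 miRNAs were between 1.78 and 2.53 times those with 1 drug. Each total included a small number of very bright spots, nearly all in every 4th column of the array starting from column 2. In the odd columns, where the same probes were also printed, signals with both drugs lay within the range of the other treatments. Bright spots of the same 3 miRNAs also appeared on the arrays of gefitinib alone, in every 4th column starting from column 4. What made these columns bright was not tested.

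A miRNA is a short RNA cut from a hairpin precursor. It guides an Argonaute protein to messenger RNAs, mainly by pairing through its seed, the bases next to its 5′ end, and lowers their translation and stability. Either arm of the hairpin can give a mature miRNA, which the ending of the name tells apart, and miRNAs with the same seed tend to share targets.

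Mature sequences of 2 of the 3, hsa-miR-3125 and hsa-miR-4716-3p, were taken from RefSeq (GRCh38.p14). They are shown 5′ to 3′, with bases 2 to 8, the seed, in capitals, to let the seeds and base composition be compared.
hsa-miR-3125: uAGAGGAAgcuguggagaga
hsa-miR-4716-3p: aAGGGGGAaggaaacauggaga
The mature hsa-miR-3125 lies at chr2:12737376-12737395 on the plus strand, and its gene MIR3125 overlaps TRIB2, which encodes a pseudokinase of the Tribbles family. The mature hsa-miR-4716-3p lies at chr15:49169079-49169100 on the minus strand, and MIR4716 overlaps GALK2, which encodes a sugar kinase. The 2 seeds differ, while the base composition is alike: A and G make up 80% of the 20 bases of hsa-miR-3125 and 90.9% of the 22 bases of hsa-miR-4716-3p, against a median of 57.1% over the 395 tested miRNAs with a sequence. hsa-miR-4716-3p also holds a run of 5 G.

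Among the 1578 array miRNAs matched to a RefSeq sequence, 1 shared the seed of hsa-miR-3125, and hsa-miR-4716-5p is cut from the other arm of the hairpin of hsa-miR-4716-3p. Their sequences are shown for the comparison of seeds and arms.
hsa-miR-3916: aAGAGGAAgaaauggcugguucucag
hsa-miR-4716-5p: uCCAUGUUuccuucccccuucu
The scanner software detected both on 0 of 8 arrays, so that neither entered the tests.

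The software detected 395 to 481 miRNAs on an array, and 365 on every array. The unscaled 75th percentile of these 365 ran from 60.5, on replicate 2 of both drugs, to 92.7. The general marker miR-21-5p and the epithelial miR-200b-3p were detected on all 8 arrays. The epithelial miR-200c-3p and miR-141-3p were detected on none, and miR-205-5p was detected on 6. Markers of muscle (miR-1, miR-133a), liver (miR-122-5p) and neurons (miR-124-3p) were detected on none, and of the blood markers miR-223-3p was detected on none and miR-142-3p on 1. In every row of the slide the treatments stood in the same order (DMSO in slide column 1, luteolin in 2, gefitinib in 3, both drugs in 4), so treatment and place on the slide cannot be told apart.

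All 3 miRNAs were detected on all 8 arrays. The scaled total signal of hsa-miR-3125, a linear intensity, was 19.3 and 17.6 with DMSO, 15.4 and 13.6 with luteolin, 14.5 and 16.1 with gefitinib, and 36.3 and 35.8 with both drugs. That of hsa-miR-5194 was 26.0 and 22.9, 25.2 and 19.8, 20.2 and 21.8, and 51.8 and 54.3 in the same order. That of hsa-miR-4716-3p was 26.8 and 23.7, 21.9 and 17.9, 22.3 and 23.4, and 41.5 and 39.6. For each miRNA both arrays of luteolin plus gefitinib lay above the other 6. Both DMSO arrays lay above the single-drug arrays except for hsa-miR-5194, where DMSO and luteolin overlapped. Luteolin and gefitinib overlapped for hsa-miR-3125 and hsa-miR-5194, and for hsa-miR-4716-3p both gefitinib arrays lay just above both luteolin arrays. Among the 365 miRNAs detected on all arrays, 22 (6.03%) had both of these arrays above the other 6. The choice of the 3 miRNAs used these values, and they are a description only.

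**Figure D1:**
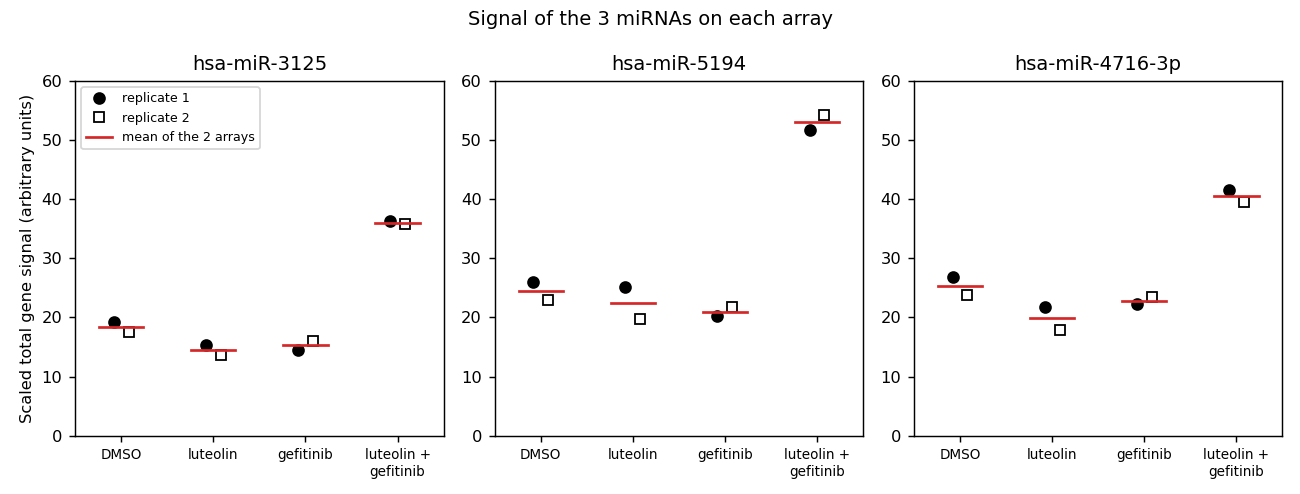
Scaled total signal (linear axis, arbitrary units) of the 3 miRNAs on each array by treatment, with circles for replicate 1, squares for replicate 2 and red lines for the mean of 2 arrays. With both drugs hsa-miR-3125 lay at 36.3 and 35.8, hsa-miR-5194 at 51.8 and 54.3 and hsa-miR-4716-3p at 41.5 and 39.6, above all arrays of the other treatments.

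Luteolin plus gefitinib gave 36.0 ± 0.362 (SD, n = 2) for hsa-miR-3125 against 14.5 ± 1.28 with luteolin and 15.3 ± 1.11 with gefitinib. The log2 fold change was 1.31 (SE 0.14) over luteolin and 1.24 over gefitinib. For hsa-miR-5194 the means were 53.0 ± 1.79 with both drugs, 22.5 ± 3.79 with luteolin and 21.0 ± 1.15 with gefitinib, and the log2 fold changes 1.25 (SE 0.17) and 1.34. hsa-miR-4716-3p rose least of the 3, from 19.9 ± 2.78 with luteolin and 22.8 ± 0.788 with gefitinib to 40.6 ± 1.38, with log2 fold changes of 1.03 (SE 0.16) and 0.83. All 3 were called higher with both drugs than with luteolin, where 1.25% of the 480 tested miRNAs were, and than with gefitinib, where 1.04% were. As these comparisons chose the 3 miRNAs, nothing is read from these counts.

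The DMSO arrays took no part in the choice, but the drug arrays did. Against DMSO the log2 fold changes with both drugs were 0.97, 1.12 and 0.68 for hsa-miR-3125, hsa-miR-5194 and hsa-miR-4716-3p. With luteolin alone they were -0.35, -0.13 and -0.35, and with gefitinib alone -0.27, -0.22 and -0.14. From the spots in even columns, read after seeing the data, the gefitinib changes turned to 0.98, 0.38 and 0.76. With no scaling between arrays they turned to 0.09, 0.15 and 0.22, so the direction with gefitinib alone depends on the scaling. The luteolin change of hsa-miR-5194 likewise turned to 0.0247 with no scaling. The excess of both drugs over the sum of the single changes was 1.59 (SE 0.20), 1.46 (SE 0.24) and 1.18 (SE 0.22) on the log2 scale. All of these values include arrays that the choice used and are a description, with no test.

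The choice set both drugs against luteolin and against gefitinib alike, and did not use the difference between the single drugs, although it used their arrays and so favoured miRNAs that neither drug alone raised. hsa-miR-3125 differed by 0.08 on the log2 scale (SE 0.14, 95% interval -0.27 to 0.43, limma adjusted p = 0.910). hsa-miR-5194 differed by -0.09 (SE 0.17, interval -0.51 to 0.33, limma adjusted p = 0.910), and hsa-miR-4716-3p by 0.21 (SE 0.16, interval -0.18 to 0.59, limma adjusted p = 0.655). From the totals no difference passed the test for any of the 3, against 24 of 480 miRNAs called (5%), and since the choice used these arrays nothing is read from this count. That count ran from 1 (without gefitinib replicate 1, and also without replicate 2) to 48 (without luteolin replicate 1), and was 0 with only these 2 groups in the fit and 2 by the methods' t-test. hsa-miR-3125 and hsa-miR-4716-3p did pass under normexp with quantile normalization (limma adjusted p = 0.0444 and 0.0236). That setting averages all spots, including outlying ones that the software leaves out of the totals, so it differs in more than normalization. Nothing is read from these passes, as the choice used the same arrays. At an unadjusted p under 0.05 the count of the 3 was 0 by limma and 0 by the methods' t-test, against 80 and 68 of the 480. The intervals from the totals leave room for changes of up to about 0.59 on the log2 scale. In even columns, read after seeing the data and with outlying spots kept, the differences were 1.28, 0.53 and 1.17, given as values only.

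Among the 365 miRNAs detected on all arrays, 83 had higher mean signals with both drugs than with each drug alone. Ranked by the smaller of the 2 log2 fold changes, hsa-miR-5194 was first (1.25), hsa-miR-3125 second (1.24) and hsa-miR-4716-3p last of the 3 (0.83). The next below were miR-501-5p (0.68), miR-3156-5p (0.63) and miR-671-5p (0.62). Over the 8 arrays, which share their scaling, the log2 signals of hsa-miR-3125 correlated with those of hsa-miR-5194 at r = 0.98 and of hsa-miR-4716-3p at r = 0.98, and the latter pair at r = 0.96. Outside the 3, miR-501-5p had the highest r with each of them, 0.94 with hsa-miR-3125, 0.93 with hsa-miR-5194 and 0.95 with hsa-miR-4716-3p. miR-3156-5p gave r = 0.91, 0.91 and 0.93. Spearman's rho was 0.83 to 0.98 within the 3, 0.60 to 0.76 with miR-501-5p, and as high as within the 3 with miR-3156-5p (0.90, 1 and 0.83). It was 0.93 between hsa-miR-4716-3p and miR-1914-3p. The ranks of the 3 and their likeness to each other rest on the values used to choose them, so nothing is read from either. These are descriptions over arrays of 4 treatments, with no test.

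Each of the 3 miRNAs was measured by 2 probes, each printed at 15 spots. For hsa-miR-3125, probe A_25_P00015830 gave 10.8 and 9.55 with DMSO, 8.38 and 7.20 with luteolin, 7.76 and 9.14 with gefitinib, and 27.6 and 26.3 with both drugs. Probe A_25_P00015829 gave 8.57 and 8.06, 7.04 and 6.41, 6.74 and 6.93, and 8.71 and 9.52. The first probe rose with both drugs by 1.79 over luteolin on the log2 scale, and the other by 0.44.

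The probes of hsa-miR-4716-3p parted in the same manner. Probe A_25_P00017155 gave 29.0 and 27.1 with both drugs, against 8.60 to 12.6 on the other 6 arrays, a change of 1.58 over luteolin and 1.24 over gefitinib. Probe A_25_P00017156 gave 12.5 and 12.4, within the 9.33 to 14.2 of the other arrays, with changes of 0.26 and 0.19. Both probes of hsa-miR-5194 were higher with both drugs. They read 20.2 and 18.8 for A_25_P00017499 and 31.5 and 35.5 for A_25_P00017500, against 9.45 to 12.6 and 9.62 to 13.4 on the other arrays. The gap between the highest and lowest probe was taken in the change of both drugs over the single drugs, averaged over the 2 drugs. Over the 343 miRNAs with at least 2 comparable probes its median was 0.07 on the log2 scale. Gaps of 1.31 for hsa-miR-3125, 1.18 for hsa-miR-4716-3p and 0.80 for hsa-miR-5194 ranked 4, 5 and 12. Some of the 343 had more than 2 probes, so the ranks compare unlike numbers of probes.

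**Figure D2:**
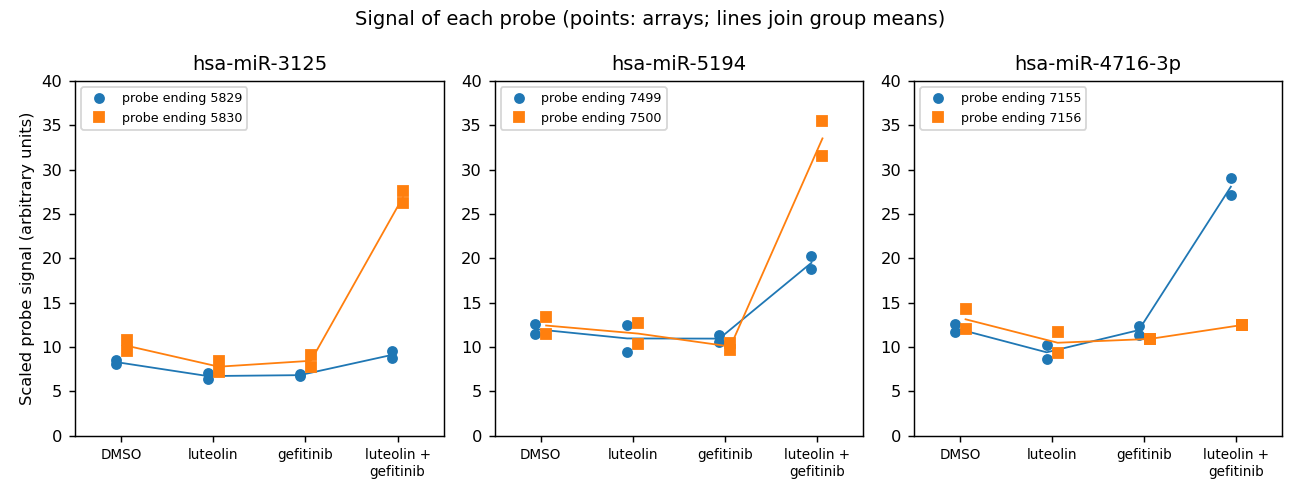
Scaled signal (linear axis, arbitrary units) of the 2 probes of each miRNA by treatment, with 1 point per array and lines joining the group means, and probes told apart by the end of their number. With both drugs A_25_P00015830 lay at 27.6 and 26.3 while A_25_P00015829, a probe of the same miRNA, lay at 8.71 and 9.52.

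The spots behind these totals were then read singly, before scaling. A spot was called bright where its signal exceeded 2 times the median of its probe on that array. hsa-miR-3125 had 9 and 8 bright spots of 30 on the arrays of both drugs, of which 8 were at the same positions. hsa-miR-5194 had 9 and 9, all 9 at the same positions, and hsa-miR-4716-3p had 7 and 7, with 6 in common. With DMSO and with luteolin none of the 3 had a bright spot. With gefitinib alone they had 4 and 3, 4 and 3, and 4 and 2, and 0 of those positions were bright with both drugs.

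The positions followed the printed grid of 384 rows and 164 columns. On the arrays of both drugs, every bright spot of hsa-miR-3125 and hsa-miR-5194 lay in columns 2, 6, 10 and so on, and so did 6 of the 7 of hsa-miR-4716-3p on each array. On the first of these arrays the 9 spots of hsa-miR-3125 in these columns read 72.1 to 304 (median 217), and its other 21 spots read 21.4 to 51.6. On the second they read 46.9 to 200.3 and 15.4 to 41.9, so the classes did not overlap on either array. The 14 spots of hsa-miR-5194 in these columns read 78.9 to 310.5 and 64.4 to 268, above the highest of its other spots (54.5 and 51.6). Only 9 of them were called bright on each array. For A_25_P00017500, with most of its spots in these columns, the probe median itself was 92.3 and 64.4. The 7 of hsa-miR-4716-3p read 77.3 to 349 and 50.2 to 223, and here the highest other spot (82.2 and 57.4) lay within their range.

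On the arrays of gefitinib alone the bright spots lay in columns 4, 8, 12 and so on. The 4 spots of hsa-miR-3125 in these columns read 75.3 to 229 on the first array and 58.0 to 218 on the second, and its other 26 spots reached 46.6 and 57.4. The 6 of hsa-miR-5194 read 62.1 to 255 and 63.7 to 244, with other spots up to 47.0 and 54.2. The 5 of hsa-miR-4716-3p read 78.5 to 327 and 79.7 to 249, with other spots up to 63.5 and 70.5. The brightest spots of all 3 miRNAs with gefitinib alone thus lay within the range seen with both drugs, at different places on the array.

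The scanner software sets aside outlying spots of a probe before it forms the total. On the gefitinib arrays it set aside all 7 bright spots of hsa-miR-3125, all 7 of hsa-miR-5194 and 5 of the 6 of hsa-miR-4716-3p. On the arrays of both drugs it set aside 2 of the 17 of hsa-miR-3125, 3 of the 18 of hsa-miR-5194 and 2 of the 14 of hsa-miR-4716-3p. The probes that rose most also had the most spots in columns 2, 6, 10 and so on. A_25_P00015830 had 6 there against 3 for A_25_P00015829, A_25_P00017500 had 8 against 6 for A_25_P00017499, and A_25_P00017155 had 4 against 3 for A_25_P00017156.

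**Figure D3:**
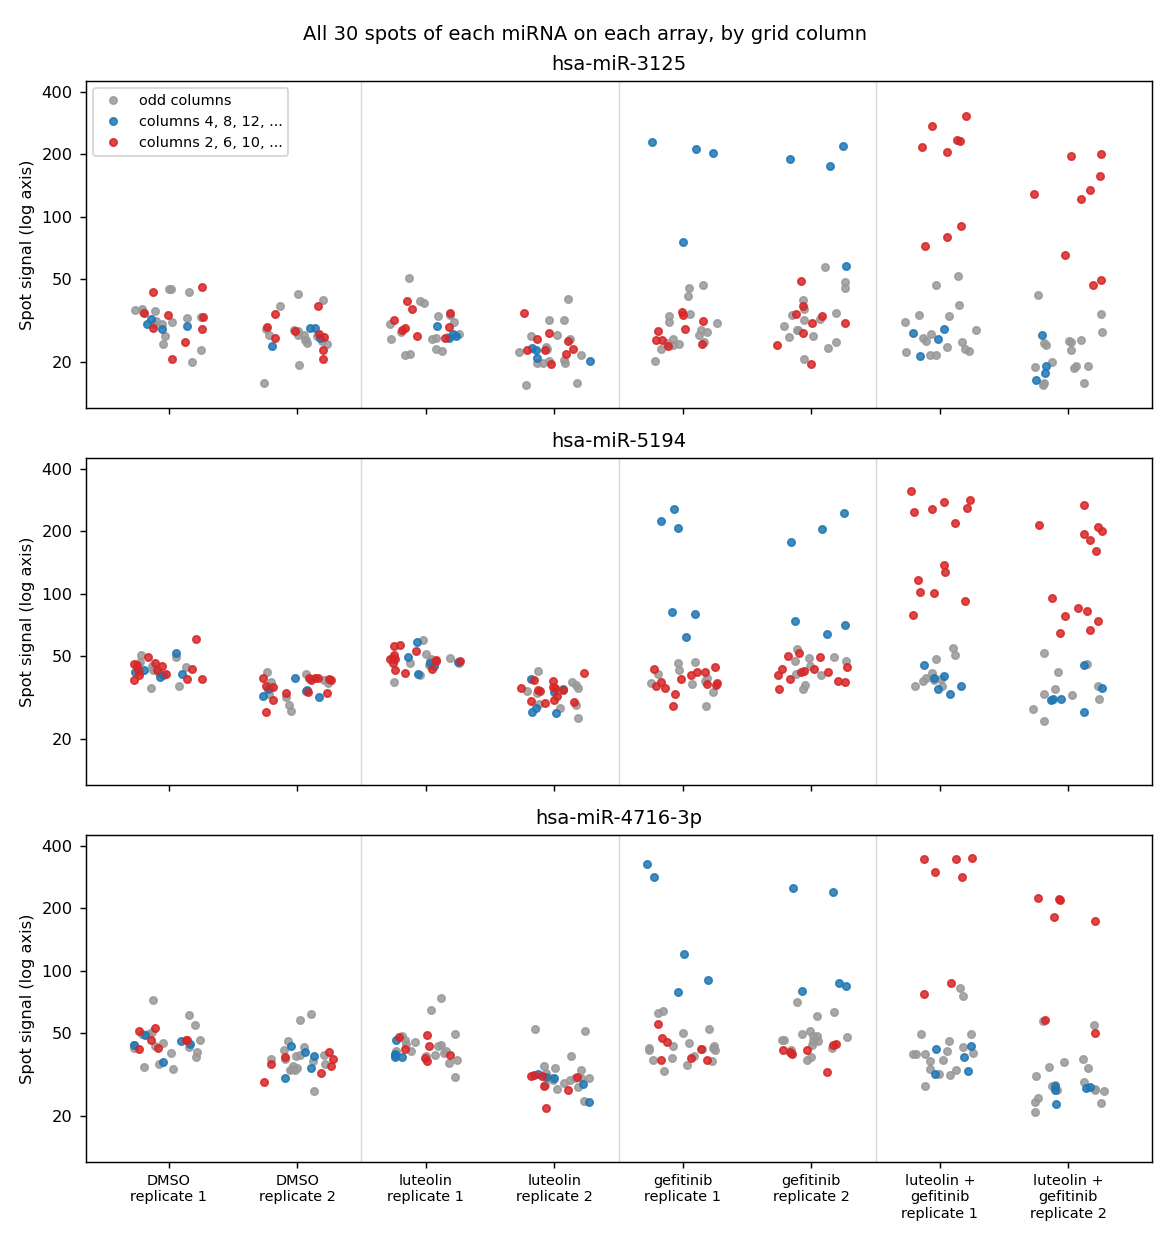
Signal of each of the 30 spots of the 3 miRNAs on each array before scaling, on a log axis, coloured by grid column (red for columns 2, 6, 10 and so on, blue for columns 4, 8, 12 and so on, grey for odd columns). On the first array of both drugs the red spots of hsa-miR-3125 read 72.1 to 304 and its blue spots 21.4 to 28.7.

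The same columns were bright for other miRNAs. Of the 10950 spots of the 365 miRNAs, 338 and 353 were bright on the arrays of both drugs and 274 and 231 with gefitinib, against 76 and 110 with DMSO and 82 and 85 with luteolin. On the arrays of both drugs 10.4% and 9.19% of the spots in columns 2, 6, 10 and so on were bright, and on those of gefitinib 7.20% and 5.87% of the spots in columns 4, 8, 12 and so on. The share was 0.469% to 1.40% in every other set of columns on every array. By the number of positions bright on both arrays of both drugs, hsa-miR-5194, hsa-miR-3125 and hsa-miR-4716-3p ranked 2, 3 and 5 of 365, and miR-3156-5p was first with 10.

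**Figure D4:**
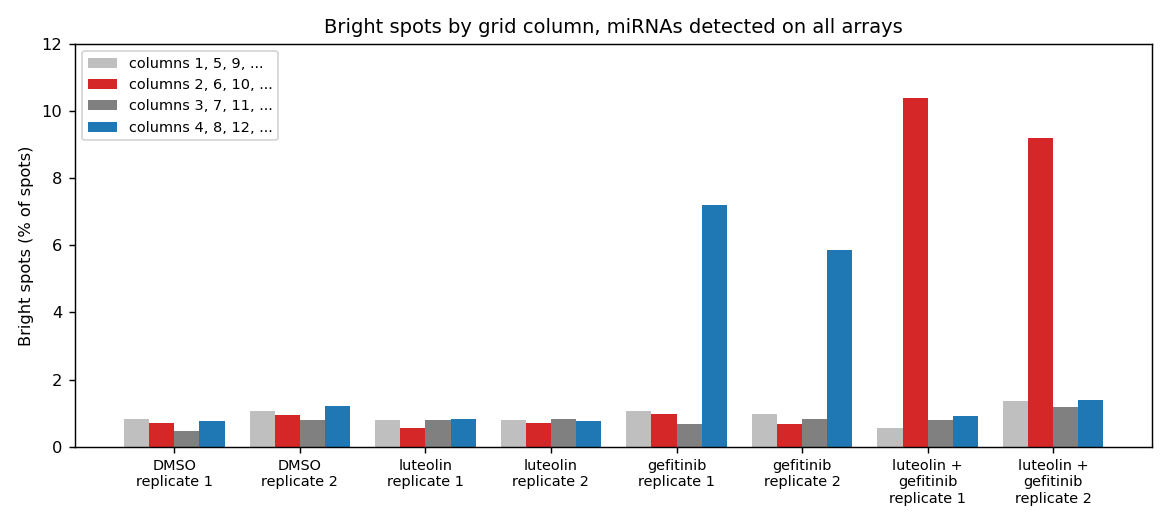
Percent of spots brighter than 2 times the median of their probe, by array and by set of grid columns, over the 365 miRNAs detected on all arrays. Columns 2, 6, 10 and so on stood at 10.4% and 9.19% with both drugs, columns 4, 8, 12 and so on at 7.20% and 5.87% with gefitinib, and all others at or below 1.40%.

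Within a probe, the median spot in columns 2, 6, 10 and so on was divided by the median spot in odd columns of the same array. On the arrays of both drugs this ratio was 4.72 and 3.84 for hsa-miR-3125, 4.57 and 3.94 for hsa-miR-5194, and 4.37 and 3.83 for hsa-miR-4716-3p. The log2 ratio exceeded 1 on both arrays for 36 of the 365 miRNAs, which included all 3. With gefitinib alone, in columns 4, 8, 12 and so on, it did so for 22, again with all 3. The lists had 19 miRNAs in common, 52.8% of the first and 86.4% of the second, and rest on different arrays. The miRNAs most like the 3 were on the first list too, with log2 ratios of 3.61 and 3.29 for miR-3156-5p and 1.41 and 1.47 for miR-501-5p. In the 36, 7 of the 30 with a sequence were purine-rich (A and G at least 75%), against 40 of 303 over all, and both counts include hsa-miR-3125 and hsa-miR-4716-3p.

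Odd columns held 17 of the 30 spots of hsa-miR-3125, 10 of hsa-miR-5194 and 18 of hsa-miR-4716-3p, and were read alone, a choice made after seeing the data. The scaled mean of the spots of hsa-miR-3125 in these columns was 35.2 and 31.4 with DMSO, 28.2 and 25.0 with luteolin, 26.4 and 28.8 with gefitinib, and 27.0 and 30.5 with both drugs. For hsa-miR-5194 it was 45.6 and 39.4, 44.4 and 33.9, 33.8 and 37.5, and 37.5 and 45.4. For hsa-miR-4716-3p it was 47.9 and 44.0, 41.7 and 34.0, 37.6 and 40.9, and 38.9 and 41.2. The arrays of both drugs overlapped those of each single drug for all 3. Unlike the totals, the means by column keep spots that the software set aside.

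Over luteolin the log2 fold change in odd columns was 0.11 (SE 0.17, 95% interval -0.28 to 0.51) for hsa-miR-3125, 0.09 (interval -0.40 to 0.58) for hsa-miR-5194 and 0.09 (interval -0.32 to 0.50) for hsa-miR-4716-3p. Over gefitinib it was 0.06 (interval -0.34 to 0.45), 0.21 (interval -0.28 to 0.70) and 0.03 (interval -0.38 to 0.44). In even columns the changes over luteolin were 1.94, 1.64 and 1.84. In the same columns gefitinib alone exceeded luteolin by 1.28, 0.53 and 1.17. Among the 365 miRNAs the 3 ranked 79, 55 and 93 for the smaller change over a single drug in odd columns, and 8, 3 and 7 in even columns. As the choice used these arrays, nothing is read from the even-column ranks.

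**Figure D5:**
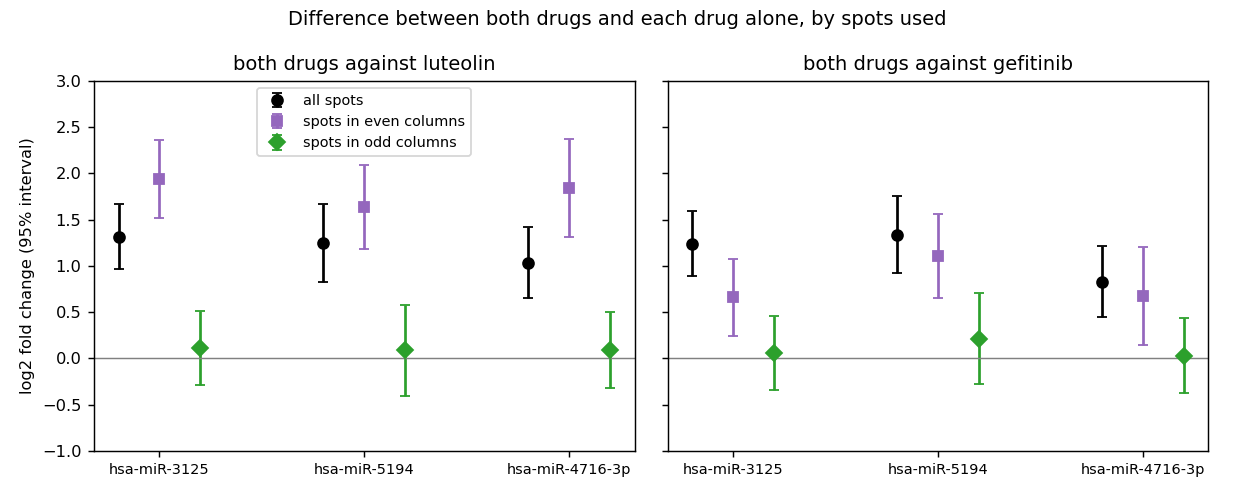
Log2 fold change of both drugs over luteolin (left) and over gefitinib (right) for the 3 miRNAs, with bars for 95% intervals. Black points (all spots in the legend) are from the totals, which leave out spots that the software set aside. Purple points are from spots in even columns and green points from spots in odd columns, with set-aside spots kept. Over luteolin the odd columns gave 0.11, 0.09 and 0.09 and the even columns 1.94, 1.64 and 1.84, and over gefitinib the odd columns gave 0.06, 0.21 and 0.03.

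Base composition was followed beyond the 3 miRNAs. Without the members, 43 tested miRNAs were purine-rich, and their median log2 fold change with both drugs was 0.06 over luteolin and -0.10 over gefitinib, against -0.06 and -0.07 over all 477 tested without the members. In gefitinib against luteolin it was 0.28, against 0 over all. By limma 0 of the 43 were called in any of these comparisons, where 1.26%, 3.98% and 5.03% of the 477 were, and 9, 1 and 8 of the 43 had an unadjusted p under 0.05, against 71, 57 and 80 of the 477. The methods' t-test with adjustment called 0, 1 and 0 of the 43, against 1, 17 and 2 of the 477. Without the members, 72 tested miRNAs held a run of at least 4 G. Their median was 0.25 over luteolin, with 1 (1.39%) called higher, against 0.629% of the 477. Over gefitinib it was -0.06, with 1 (1.39%) called higher and 2 (2.78%) called lower, against 0.419% and 3.56% of the 477. In gefitinib against luteolin their median was 0.29 and 5 (6.94%) were called higher, against 4.61% of the 477. With gefitinib against DMSO, 4 of the 43 purine-rich miRNAs (9.30%) and 13 of the 72 with a run of G (18.1%) were called higher, against 7.55% of the 477. With both drugs against DMSO these were 3 of the 43 (6.98%) and 10 of the 72 (13.9%), against 5.45%. The methods' t-test with adjustment called 0 of the 43 and 8 of the 72 in gefitinib against DMSO, against 38 of the 477. For both drugs against DMSO it called 0 of the 43 and 1 of the 72, against 13 of the 477. With luteolin against DMSO 0 of each list were called higher by limma, against 0.210%, with 3 and 7 at an unadjusted p under 0.05 and 0 called by the methods' t-test.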

How the data were processed

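Total RNA (100 ng) of 8 samples was labelled with Cy3 and hybridised to 1-colour Agilent miRNA arrays. The deposited values are linear intensity, extracted by the authors one array at a time with Agilent Feature Extraction 10.7.3.1 (per the file headers), background-subtracted and not normalized between arrays. The software rejects outlying spots and gives a total signal per miRNA, with 0.1 where it is not detected. Each array held 56610 miRNA spots, 0 of them saturated. The file headers name build hg19, and sequences are from RefSeq GRCh38.p14, which matched 1578 of 1887 miRNAs by name.

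Samples were grouped by the treatment in the labels. Totals were scaled to the 75th percentile over 365 miRNAs detected on all arrays, raised to a floor of 0.609 and put on the log2 scale. The 480 miRNAs that both arrays of some treatment detected entered 1 limma 3.58.1 fit (R 4.3.3) of the 4 groups, with 4 residual degrees of freedom and a prior of 1.66. Two-sided p-values were given a Benjamini-Hochberg adjustment over the 480, and a call was an adjusted p under 0.05. An exact permutation test of 2 arrays against 2 cannot go below 0.333 and was not used. The script was tested on simulated data.

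The 3 miRNAs and all lists were chosen with earlier results of these data known. The fit covered every comparison, but for the 3 miRNAs a test is read only in gefitinib against luteolin, the difference least touched by the choice, which used the arrays of both single drugs alike. Other miRNAs were named by shared seed, hairpin arm, the 5 highest Pearson r, the next 3 by rank, or as tissue markers. Probe signals took the factors of the totals. Alternatives changed scaling, spot summary, background, filter, floor, arrays in the fit, block, test and replicates, and spot summaries by median, brightness and grid column were chosen after seeing the data. The number of arrays limits the precision.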

Additional observations from a re-analysis of the deposited data

Results flagged for a closer look

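In the scaled totals, the change of each of the 3 miRNAs with gefitinib had opposite directions with and without luteolin. On the log2 scale the change on the luteolin background exceeded that on the DMSO background by 1.59 for hsa-miR-3125, 1.46 for hsa-miR-5194 and 1.18 for hsa-miR-4716-3p. In the scaled totals every array of both drugs lay above both luteolin arrays, and every gefitinib array lay below both DMSO arrays. As the choice of the 3 miRNAs used these arrays, no test of the difference is given, and the difference was not tested on other arrays. Before scaling, the mean total with gefitinib was above that with DMSO for all 3 (17.9 against 16.8, 24.6 against 22.3 and 26.8 against 23.0), so without scaling the direction was the same with and without luteolin. The scaled changes with gefitinib alone (-0.27, -0.22 and -0.14) had 95% intervals that include 0, and the median change over all tested miRNAs was -0.10. In even columns every gefitinib array lay above both DMSO arrays (71.5 and 60.8 against 34.5 and 32.4 for hsa-miR-3125, 62.2 and 56.0 against 48.6 and 42.0 for hsa-miR-5194, and 90.4 and 69.5 against 50.6 and 43.1 for hsa-miR-4716-3p), so the direction there was the same with and without luteolin. In odd columns the arrays of both drugs overlapped those of luteolin alone. How many other miRNAs showed the separations named here, in totals or in even columns, was not counted, so nothing is read from them.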

How the results depend on the processing

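Values are log2 fold changes, in the order hsa-miR-3125, hsa-miR-5194 and hsa-miR-4716-3p. With both drugs over luteolin they were 1.31, 1.25 and 1.03, and over gefitinib 1.24, 1.34 and 0.83. Over luteolin, normexp with quantile normalization gave 0.32, 0.51 and 0.27, log2 of the signal plus 16 gave 0.77, 0.85 and 0.66, human small-RNA control probes gave 1.63, 1.57 and 1.35, and the mean processed signal scaled over all miRNAs gave 1.51, 1.44 and 1.22. No scaling gave 1.19 for the first and 0.91 for the last, and quantile normalization gave 1.20 for the first. Over gefitinib, no scaling gave 0.90, 1.00 and 0.49, spike-in probes 0.95, 1.05 and 0.54, the mean processed signal scaled over all miRNAs 1.55, 1.65 and 1.14, normexp 0.21, 0.46 and 0.12, and the signal plus 16 gave 0.73, 0.90 and 0.54. The probe with the lower number alone gave 0.44, 0.84 and 1.58 over luteolin and 0.41, 0.83 and 1.24 over gefitinib, and that with the higher number 1.79, 1.55 and 0.26, and 1.68, 1.74 and 0.19.

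Settings chosen after seeing the data moved these values further. Over luteolin the median over spots gave 0.32, 0.68 and 0.11, spots that were not bright 0.10, 0.45 and 0.0635, odd columns 0.11, 0.0885 and 0.0905, and even columns 1.94, 1.64 and 1.84. Over gefitinib they gave 0.34, 0.81 and -0.000742, then 0.0731, 0.53 and -0.0864, then 0.0573, 0.21 and 0.0292, then 0.66, 1.11 and 0.68, so hsa-miR-4716-3p changed sign under the first and second. Against DMSO the changes of hsa-miR-3125 turned to -0.0221 (median), -0.23 (spots not bright) and -0.21 (odd columns). Those of hsa-miR-4716-3p turned to -0.25, -0.28, -0.20 and, with the higher-numbered probe alone, -0.0679, and that of hsa-miR-5194 to -0.0398 in odd columns. Gefitinib alone against DMSO turned from -0.27, -0.22 and -0.14 to 0.98, 0.38 and 0.76 in even columns, 0.09, 0.15 and 0.22 with no scaling, 0.09, 0.14 and 0.22 with human small-RNA control probes, 0.22, 0.28 and 0.35 with spike-in probes, and 0.0450, 0.0337 and 0.0445 under normexp. With the mean processed signal scaled over all miRNAs it was -0.0764, -0.0238 and 0.0552. What caused these shifts was not tested.

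In gefitinib against luteolin, hsa-miR-3125 and hsa-miR-4716-3p passed the limma test under normexp with quantile normalization (0.11 and 0.15, adjusted p = 0.0444 and 0.0236). That setting averages all spots, also those set aside from the totals, and the choice used these arrays, so nothing is read from the passes. In even columns, chosen after the bright spots were seen, the differences of hsa-miR-3125 and hsa-miR-4716-3p were 1.28 and 1.17, given as values only. The number of miRNAs called, 24, became 54 under normexp, 37 with the signal plus 16, 14 with no filter, 12 with only miRNAs detected on all arrays, 14 with the median, 14 in odd columns, 66 in even columns, 0 with only the groups compared in the limma fit (75 at an unadjusted p under 0.05) and 2 with the methods' t-test. Leaving out 1 array at a time gave 1.22 to 1.40, 1.07 to 1.42 and 0.89 to 1.18 over luteolin, 1.17 to 1.31, 1.28 to 1.39 and 0.79 to 0.86 over gefitinib, and -0.01 to 0.17, -0.26 to 0.08 and 0.06 to 0.35 for gefitinib against luteolin. The count ranged from 1 (without gefitinib replicate 1, and also without gefitinib replicate 2) to 48 (without luteolin replicate 1). Same-numbered arrays lay in the same row of the slide, and the correlation of their deviations from the group means ran from -0.13 to 0.91 over 6 pairs of groups. As it was not over 0.1 in every pair, the arrays were not treated as paired. With the replicate number as a block the log2 fold changes over luteolin stayed at 1.31, 1.25 and 1.03, 29 miRNAs were called in gefitinib against luteolin, and 5 in place of 9 with both drugs over luteolin. A block for slide or scan was not run, since there was 1 of each. All 15 spots of each of the 6 probes were well above background on every array.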
